A study of Mus musculus with 155 samples.

Results

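The 59 genes described here encode the machinery that condenses, holds, aligns and separates chromosomes in mitosis. They were taken by name from a list of kinetochore, checkpoint, condensin, cohesin and spindle genes, and all 59 were found among the 55471 genes of the count tables. By role they fall into 9 groups, namely the outer kinetochore, the spindle checkpoint, the mitotic kinases with the chromosomal passenger complex, the centromere proteins, spindle motors and assembly factors, the central spindle with cytokinesis, condensin with topoisomerase, cohesin with its cleavage, and the cyclins with Cdk1 and Cdc20.

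The cells were KH2 mouse embryonic stem cells (ESCs), a line with a single doxycycline (Dox) inducible locus, from which tagged H3.3 was switched on, either wild type (WT-H3.3) or as H3.3K27M or H3.3K27L. H3.3K27M replaces lysine 27 of the histone variant H3.3 with methionine and H3.3K27L replaces it with leucine. Gene counts of 42 RNA-seq libraries were compared. The 32 ESC libraries held WT-H3.3, H3.3K27M, H3.3K27L and GSK343-treated WT-H3.3 cells (GSK343 inhibits EZH2, the methyltransferase of PRC2), with 2 replicates of each group after 4, 8, 24 and 72 h of Dox. The 6 retinoic acid (RA) libraries held the 3 lines without GSK343, 1 library per line after 24 and after 72 h of Dox. The 4 oligodendrocyte progenitor cell (OPC) libraries held WT-H3.3 and H3.3K27M cells, again 1 library per line at each of these times. All groups, the WT-H3.3 controls included, carried the inducible locus and received Dox, so no uninduced cells were compared. ESCs grew in serum with LIF and 2 inhibitors (2i). RA-treated cells had lost LIF and 2i and received RA, for 4 days by the methods. Dox was added 24 h after RA, and 72 h of Dox completed the 4 days. How long the libraries of 24 h of Dox had been in RA is not given in the sources used here. OPC cultures were made through embryoid bodies with RA and purmorphamine and then kept in OPC medium. Cultures were not sorted, and the sources used here do not say whether a line is 1 clone.

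Mitotic genes follow the cell cycle. Most are transcribed late, as cells approach division, from promoters that hold a CHR element (cell cycle genes homology region) and CCAAT boxes, where the MuvB complex with B-MYB and FOXM1 acts in dividing cells and the DREAM complex represses in resting cells. Some of their proteins are then destroyed at the end of mitosis by the anaphase-promoting complex with Cdc20 and later Cdh1. Cohesin subunits differ from the rest in that they also organise chromatin in interphase and are expressed in resting cells. In a bulk sample, fewer dividing cells and less RNA per dividing cell cannot be told apart.

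The promoter windows show the sequence that most of these genes share. Of the 59 genes, 50 had at least 1 window (56 in all) in the RefSeq table (GRCm38.p6, from 250 bases before to 50 bases after the annotated start). The CHR letters TTTGAA or TTCGAA, read on both strands, stood in a window of 34 of the 50 genes (68.0%) against 21.7% of all 27025 genes with a window. The letters CCAAT, also read on both strands, stood in a window of 34 of the 50 genes (68.0%) against 41.1% of all genes. A CHR sequence together with at least 2 CCAAT boxes was found in 1 window of 17 of the 50 genes (34.0%), against 2.7% of all genes. By window, the 3 shares were 66.1, 69.6 and 33.9% of 56 against 19.2, 37.4 and 2.3% of all 32851. The 2 motifs share no letters in the windows printed here. A match is a description of the letters, not evidence of binding. Printed below are stretches before the start of Cdc20 and Cdk1, which hold both motifs, of Top2a, the gene with the largest line difference in OPCs, of Espl1, with 1 copy of each, and of Smc3, which has neither. Each is read 5′ to 3′ on the strand of its gene, and capitals mark CHR and CCAAT letters in either direction (TTCAAA and ATTGG are the reverse reads). The Cdc20 stretch is chr4:118437344-118437443 (minus strand), the Cdk1 stretch is chr10:69352913-69353012 (minus strand) and the Top2a stretch is chr11:99024190-99024439 (minus strand). Espl1 is at chr15:102296193-102296292 (plus strand) and Smc3 at chr19:53600296-53600395 (plus strand).
Cdc20: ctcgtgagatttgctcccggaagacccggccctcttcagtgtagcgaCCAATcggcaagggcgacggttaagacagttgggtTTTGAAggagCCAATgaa
Cdk1: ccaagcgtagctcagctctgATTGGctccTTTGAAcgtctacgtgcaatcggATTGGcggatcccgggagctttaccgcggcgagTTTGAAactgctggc
Top2a: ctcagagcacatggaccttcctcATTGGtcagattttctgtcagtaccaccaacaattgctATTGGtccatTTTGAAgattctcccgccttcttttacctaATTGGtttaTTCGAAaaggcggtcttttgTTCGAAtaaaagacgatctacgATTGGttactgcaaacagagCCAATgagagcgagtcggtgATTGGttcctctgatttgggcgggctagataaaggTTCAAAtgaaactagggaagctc
Espl1: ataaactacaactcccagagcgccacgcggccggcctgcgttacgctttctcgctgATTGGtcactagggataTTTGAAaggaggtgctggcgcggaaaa
Smc3: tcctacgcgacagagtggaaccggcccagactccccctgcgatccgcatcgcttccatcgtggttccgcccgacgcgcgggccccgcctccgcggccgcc
Top2a held 4 CHR sequences and 6 CCAAT boxes in its stretch, and Cdk1 held 2 of each.

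The libraries differed in depth and in the cells they hold. Total counts ran from 68378 to 21161392 in ESCs, from 2239137 to 22269533 in RA-treated cells and from 7499258 to 12387113 in OPCs. The lowest total belongs to replicate 2 of H3.3K27L ESCs at 72 h, so results that rest on this library are given with and without it. Levels are given as CPM, the count scaled to library size, after TMM scaling of all 42 libraries, and are compared between libraries, not between genes. RA-treated cells are labelled neural progenitors. Cyp26a1, the RA-degrading enzyme induced by RA, was between 234.5 and 1018 CPM in them. The neural progenitor markers Pax6 and Nes lay between 11.6 and 40.03 CPM and between 20.3 and 405.2 CPM there, and the extraembryonic endoderm markers Gata4, Gata6, Sox17 and Afp summed to between 207.1 and 905.1 CPM. In OPCs, the lineage factor Olig2 was between 303.1 and 1141 CPM, but Sox10 lay between 0.16 and 3.72 CPM. Pdgfra was at 17.3 and 25.6 CPM in WT-H3.3 OPCs and at 0.63 and 0.89 CPM in H3.3K27M OPCs, so of these defining markers Sox10 was near absent in both lines and Pdgfra in H3.3K27M cells. "OPC" is therefore used here as the culture's label.

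Of the line comparisons, that between the OPC lines gave the largest difference in these genes. H3.3K27M OPCs held more mRNA of kinetochore, checkpoint, spindle, condensin and cyclin genes than WT-H3.3 OPCs at both Dox times. Of the 58 genes tested, 54 were higher at an adjusted p under 0.05 (edgeR quasi-likelihood test, Benjamini-Hochberg over all 12467 genes tested, 2 libraries against 2) and 0 were lower. Across all genes, 25.0% passed as higher and 26.5% as lower. The 2 libraries of a line were its 24 and 72 h samples, pooled, so the test measures the spread between these. Whether they came from separate differentiations is not settled by the sources used here. The median log2 difference of the 58 genes was 1.56 (2.95-fold), against a median of 0.00 over all genes. More than 2-fold higher were 45 of the 58, against 12.9% of all genes. Both H3.3K27M libraries lay above both WT-H3.3 libraries for 57 of the 58 genes, and for 38.4% of all genes. At 24 h of Dox the median ratio of H3.3K27M to WT-H3.3 was 3.15 and at 72 h it was 2.74. Together, the 59 genes took 0.892 and 0.880% of the counts in H3.3K27M OPCs and 0.340 and 0.387% in WT-H3.3 OPCs.

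**Figure D1:**
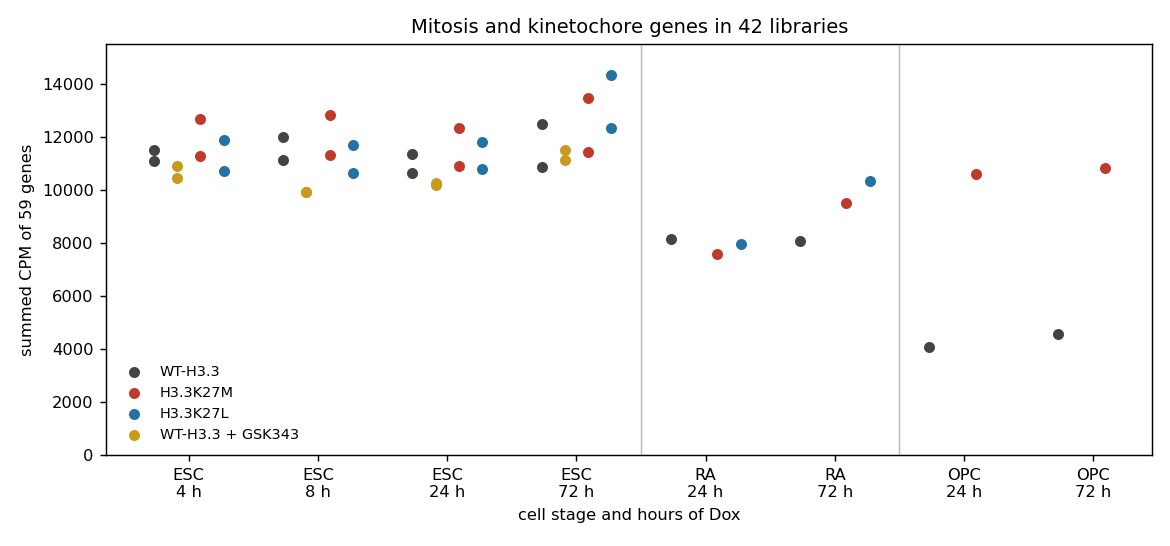
Summed CPM (y axis) of the 59 mitosis and kinetochore genes in each of the 42 libraries, by cell stage and hours of Dox (x axis). Each point is 1 library and colours are the lines. ESC libraries lie between 9920 and 14337 CPM, WT-H3.3 OPCs at 4098 and 4583 CPM and H3.3K27M OPCs at 10600 and 10843 CPM.

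In the outer kinetochore, the protein layer that grips microtubules, 7 of 9 genes were higher in H3.3K27M OPCs. Ndc80, the microtubule-binding subunit that names its complex, was at 13.2 and 21.4 CPM in WT-H3.3 OPCs (24 and 72 h) and at 41.7 and 45.6 CPM in H3.3K27M OPCs, a log2 difference of 1.33 ± 0.23 (SE). Spc25, another subunit of that complex, rose from 38.8 and 38.8 CPM to 156.1 and 140.5 CPM, with an adjusted p of 1.39e-06. The 2 lines did not overlap for either gene. Mis12, which links the outer layer to centromeric chromatin, was at 26.6 and 26.4 against 35.8 and 35.5 CPM, a small change with an adjusted p of 0.0499 that was lost without any one of the 4 libraries. Zw10, which also works in vesicle transport outside mitosis, was at 95.7 and 96.9 CPM in WT-H3.3 and at 98.1 and 84.3 CPM in H3.3K27M OPCs. Its log2 difference was -0.09 ± 0.14, and it was the only one of the 58 whose lines overlapped. Zwilch, the partner of Zw10 in the RZZ complex, did not pass either (0.51 ± 0.22, adjusted p = 0.0692).

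All 5 spindle checkpoint genes, whose products delay anaphase until every chromosome is attached, were higher. Bub1b, which encodes the checkpoint protein BubR1, was at 29.9 and 34.4 CPM in WT-H3.3 OPCs and at 126.8 and 109.5 CPM in H3.3K27M OPCs (log2 difference 1.87 ± 0.16). Bub3, its partner, is also used outside mitosis and moved far less, from 310.1 and 322.5 CPM to 413.5 and 443.5 CPM (0.43 ± 0.12). Bub1, Mad2l1 and Ttk differed by between 1.75 and 1.89 on the log2 scale.

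The 6 genes of the mitotic kinases and the chromosomal passenger complex were all higher, by 1.20 to 2.20 on the log2 scale. Aurkb, the kinase that corrects faulty attachments, was at 7.19 and 9.59 CPM in WT-H3.3 OPCs and at 40.4 and 36.8 CPM in H3.3K27M OPCs. Its scaffold Incenp went from 83.7 and 92.1 CPM to 305.9 and 283.8 CPM, with an adjusted p of 2.22e-06. Plk1, the kinase of mitotic entry, was at 285.1 and 304.8 CPM against 765.3 and 716.8 CPM. The WT-H3.3 and H3.3K27M values were apart by more than the gap between Dox times for each of these 3 genes.

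Centromere protein genes were higher for all 8 that were tested. Cenpa, the histone H3 variant that marks the centromere, was at 75.3 and 87.8 CPM in WT-H3.3 and at 278.9 and 276.4 CPM in H3.3K27M OPCs (log2 difference 1.76 ± 0.14). Cenpe, a kinesin that carries chromosomes to the spindle equator, was at 51.5 and 60.02 against 166.9 and 158.5 CPM. Cenpl changed least in this role (0.89 ± 0.14) and Cenpm most (1.83 ± 0.17). Cenpn, which reads the Cenpa nucleosome, lies on chromosome 8. That chromosome was left out of the tests because the cells may carry a duplication of it. With the chromosome kept, Cenpn was at 6.12 and 8.01 CPM in WT-H3.3 and at 21.1 and 27.9 CPM in H3.3K27M OPCs, and differed by 1.79 ± 0.24 (adjusted p = 0.000135).

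All 6 spindle motor and assembly genes were higher, by 0.99 to 1.90. Kif11, the motor that pushes spindle poles apart, was at 17.4 and 18.2 CPM in WT-H3.3 OPCs and at 63.1 and 62.0 CPM in H3.3K27M OPCs. Tpx2, which activates the kinase Aurka on the spindle, was at 47.7 and 69.4 against 165.3 and 187.0 CPM. Both genes lay well outside the range of the other line.

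Of the 6 genes of the central spindle and cytokinesis, 5 were higher. Prc1, which bundles the microtubules between separating chromosomes, was at 10.7 and 13.8 CPM in WT-H3.3 and at 23.9 and 28.0 CPM in H3.3K27M OPCs (1.08 ± 0.21). Kif20a, a motor of the same structure, was at 1.55 and 1.69 CPM against 4.44 and 2.52 CPM and did not pass (1.08 ± 0.43, adjusted p = 0.0549). Anln, an actin-binding protein of the cleavage furrow, changed little (0.51 ± 0.18).

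Condensin and topoisomerase gave the widest gap, with all 8 genes higher. Top2a, which untangles sister chromatids, was at 176.4 and 205.2 CPM in WT-H3.3 OPCs and at 913.1 and 940.4 CPM in H3.3K27M OPCs. Its log2 difference of 2.27 ± 0.14 (4.83-fold, adjusted p = 5.5e-07) had the lowest p of the 58 genes. Ncapd3, which belongs to condensin II, differed by 2.08 ± 0.21 and Ncapg, of condensin I, by 2.06 ± 0.24. Smc2, the ATPase that both condensins share, was at 131.2 and 151.5 against 373.2 and 424.1 CPM. Its partner Smc4 moved less (0.51 ± 0.14).

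Cohesin was the role with the smallest median difference (0.61), and its genes did not move alike. Espl1, which encodes separase, the protease that cuts cohesin at anaphase, was at 9.62 and 11.4 CPM in WT-H3.3 and at 50.9 and 39.9 CPM in H3.3K27M OPCs (2.11 ± 0.21). The ring subunits moved less. Rad21 was at 430.7 and 411.0 against 615.7 and 677.6 CPM (0.61 ± 0.13), and Smc1a differed by 1.07 ± 0.14. Smc3 was at 223.1 and 251.0 against 263.1 and 265.1 CPM, a log2 difference of 0.15 ± 0.13 that did not pass. Pttg1, the separase inhibitor securin, differed by 0.57 ± 0.13.

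All 5 genes of the cyclin group were higher, by 1.48 to 1.81. Ccnb1, the cyclin of mitotic entry, was at 72.0 and 87.7 CPM in WT-H3.3 OPCs and at 261.2 and 302.5 CPM in H3.3K27M OPCs. Its kinase Cdk1 was at 264.1 and 350.9 against 927.6 and 952.4 CPM (1.60 ± 0.16). Cdc20, which starts anaphase, was at 29.1 and 40.9 against 114.9 and 97.3 CPM. None of the 3 overlapped between lines.

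**Figure D2:**
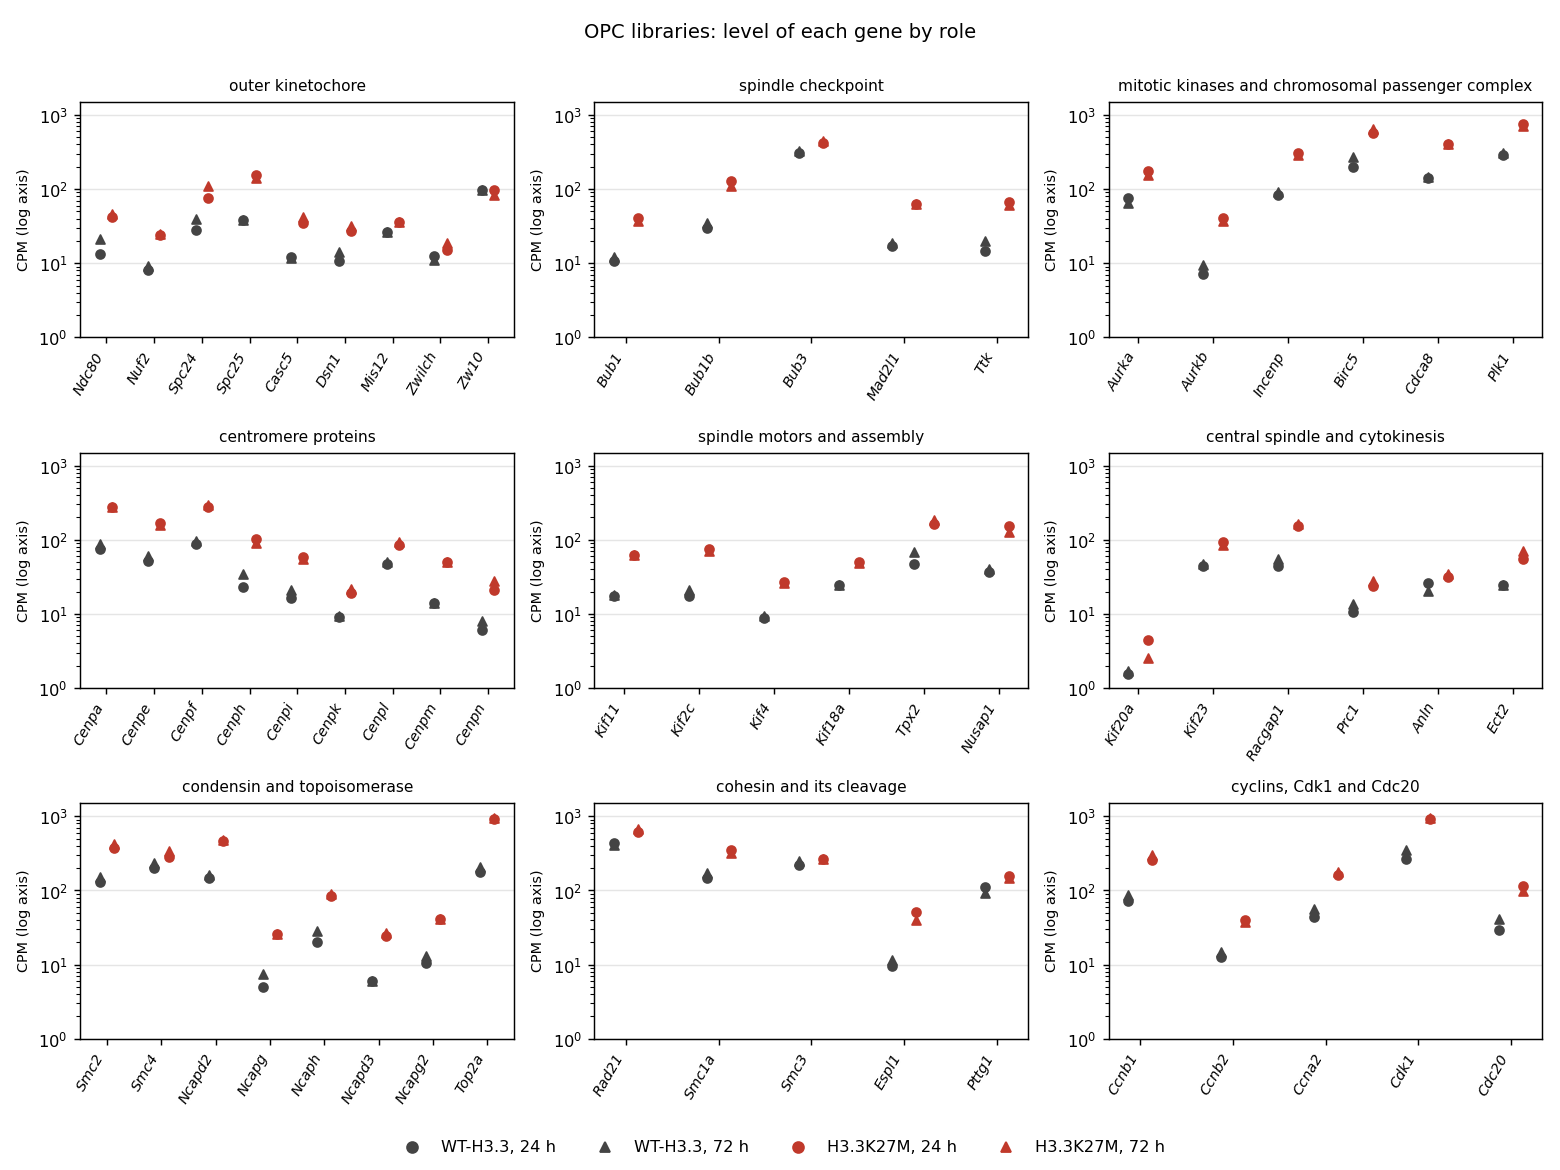
CPM (log y axis) of each of the 59 genes (x axis) in the 4 OPC libraries, 1 panel per role. Grey points are WT-H3.3, red points are H3.3K27M, circles are 24 h and triangles 72 h of Dox. Red points lie above grey ones except for Zw10, and the gap is narrow for Smc3, Bub3 and Mis12.

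Other cell cycle genes moved in the same comparison. Of 74 further mitosis genes that were tested, 59 were higher and 3 were lower, with a median log2 difference of 1.18. Among those with the lowest p were Aspm (1.92), a spindle pole protein, and Ska1 (1.81), a kinetochore protein. Of 39 DNA replication genes, 34 were higher and 1, Orc4, was lower, with a median of 1.36. Cdc6, a licensing factor, differed by 1.96 and the helicase subunit Mcm7 by 1.82. Of the genes described here, 47 of the 49 tested with a promoter window were higher in H3.3K27M OPCs. A count of higher genes could therefore hardly divide them by promoter letters. All 17 with a CHR sequence and at least 2 CCAAT boxes were higher (median log2 difference 1.60), as were 8 of 9 with neither (median of the 9, 1.38). Among other genes tested, 79 of 201 with both motifs (39.3%) were higher and 21.7% of those with neither. These other genes still include the further mitosis and DNA replication genes above, so the shares do not describe genes outside the cell cycle.

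Cell type markers moved with the line as well. The OPC markers were Olig1, Olig2, Sox10, Pdgfra, Cspg4 and Nkx2-2. They summed to 1922 and 2146 CPM in H3.3K27M OPCs and to 607.6 and 567.7 CPM in WT-H3.3 OPCs, carried by Olig1 and Olig2. Cspg4 (3.20 on the log2 scale) and Nkx2-2 (1.40) were also higher in H3.3K27M OPCs, while Sox10 (-2.88) and Pdgfra (-4.79) were lower. The 6 fibroblast markers, collagen genes among them, summed to 16.5 and 9.5 CPM in H3.3K27M and to 620.0 and 670.8 CPM in WT-H3.3 OPCs. The 4 astrocyte markers summed to 38.7 and 49.1 against 104.8 and 84.8 CPM, with Gfap, Aqp4 and Aldh1l1 lower and S100b higher (0.68 on the log2 scale). ESC markers summed to 24.1 and 25.1 against 119.4 and 108.1 CPM, with Klf4 lower and Esrrb higher. The extraembryonic endoderm markers summed to 1.74 and 2.37 against 31.2 and 42.4 CPM. The part of these cell types in the result was not tested. Each line was differentiated into 2 libraries that differ in Dox time, and line and culture cannot be told apart.

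In ESCs the mutant lines differed little from WT-H3.3 in the same genes. Between H3.3K27M and WT-H3.3 ESCs (8 libraries each, mean over 4 Dox times) 0 of 58 genes passed in either direction, where 0.00714% of all 14012 genes passed as higher and 0.00714% as lower. At an unadjusted p under 0.05 there was 1 of the 58, against 1619 of all 14012 genes, and DESeq2 also called 0 of the 58. The log2 differences of the 58 lay between -0.25 and 0.30 with a median of 0.07. For Top2a, the H3.3K27M to WT-H3.3 difference was 0.13 in ESCs and 2.27 in OPCs. Between GSK343-treated and untreated WT-H3.3 ESCs, 0 of 58 passed by edgeR, and 0% of all genes passed. At an unadjusted p under 0.05 there were 4 of the 58 and 678 of all 14012 genes. The median of the 58 there was -0.07.

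H3.3K27L ESCs had 2 genes lower and 0 higher, where 5.07% of all genes passed as lower and 3.07% as higher. Ncapd2, a condensin I subunit, ran from 437 to 647 CPM in the 8 WT-H3.3 libraries (median 566) and from 352 to 460 CPM in the 8 H3.3K27L libraries (median 405). The log2 difference was -0.42 ± 0.12 (adjusted p = 0.0277), and the ranges overlapped at one end. Zw10 ran from 89.5 to 115 CPM (median 93.1) against 72.9 to 87.6 CPM (median 80.4), with no overlap and a difference of -0.27 ± 0.08 (adjusted p = 0.0484). Without replicate 2 of H3.3K27L at 72 h, 1 gene passed as lower. Leaving out single libraries of the 16 lost the Zw10 call in 13 cases and the Ncapd2 call in 7. Same-numbered WT-H3.3 and H3.3K27L libraries deviated in opposite directions at 3 of the 4 Dox times. With numbers crossed there and used as a block (chosen after seeing the data), 4 genes were lower (Ncapd2, Zw10, Cenpa and Cenpm) and 4 higher (Cenpe, Smc2, Top2a and Smc1a). Length went with the differences in ESCs (rho 0.61 for H3.3K27M, 0.602 for H3.3K27L and -0.728 for GSK343 over the 58 genes), and its part in them was not tested.

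The test of the difference between stages addressed the lines directly. The H3.3K27M effect in OPCs exceeded that in ESCs of 24 and 72 h for 47 of 58 genes and fell below it for 0, where 9.60% of all 14964 genes passed upwards and 11.0% downwards. The median of this difference was 1.55. Top2a (2.21 ± 0.24), Aurkb (2.22 ± 0.24) and Spc25 (1.89 ± 0.21) had the lowest p. The 11 genes that did not pass were Mis12, Zwilch, Zw10, Bub3, Kif20a, Anln, Smc4, Rad21, Smc1a, Smc3 and Pttg1. In RA-treated cells, the H3.3K27M effect differed from that in ESCs for 0 of 58 genes, and 0% of all genes passed. For H3.3K27L it was 0 of 58, with 0.0540% of all genes passing upwards and 0.0203% downwards. At an unadjusted p under 0.05 there were 0 and 2 of the 58, against 532 and 1271 of all 14803 genes.

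**Figure D3:**
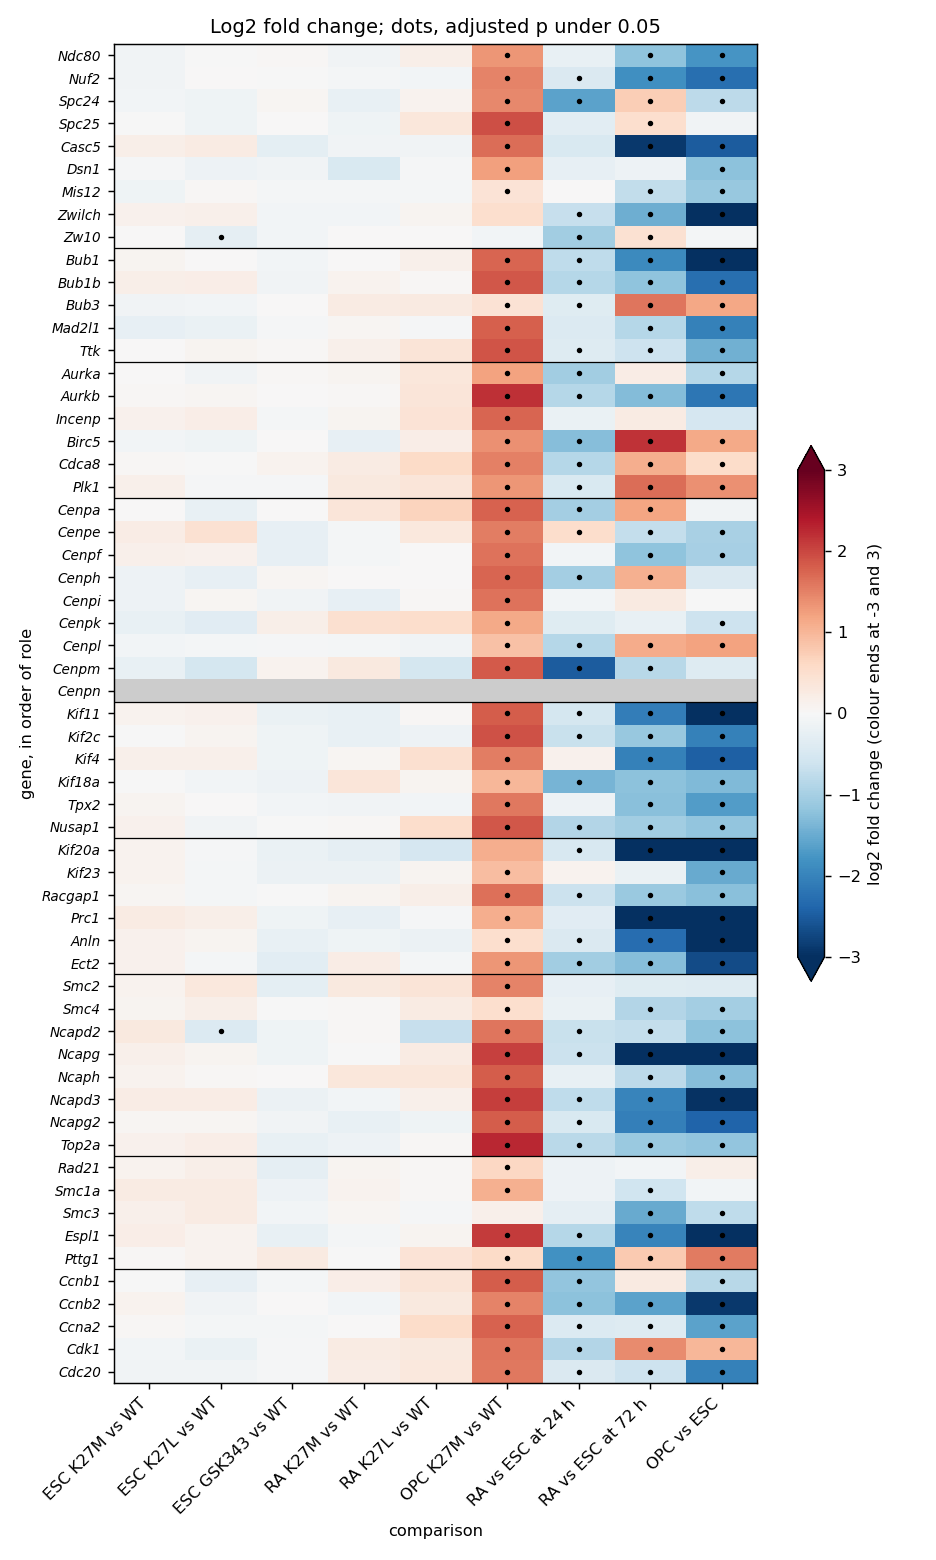
Log2 fold change (colour) of the 59 genes (rows, in order of role, divided by lines) in 9 comparisons (columns). Dots mark an adjusted p under 0.05, and Cenpn is grey because chromosome 8 was left out. The lines differ in OPCs, where 54 genes passed as higher. In ESCs, 2 genes passed as lower in H3.3K27L and 0 passed in H3.3K27M. In RA-treated cells 0 passed, in a fit whose spread includes the step between Dox times. The stage columns at the right are mostly below 0.

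Within RA-treated cells no line difference passed with both Dox times pooled. For H3.3K27M against WT-H3.3 (2 libraries each, both Dox times pooled) 0 of 58 passed by edgeR, as did 0% of all 12233 genes. The same counts were found for H3.3K27L. None of the 58 had an unadjusted p under 0.05 in either comparison, against 14 and 185 of all 12233 genes. The medians of the 58 were 0.01 and 0.10 on the log2 scale. The spread in these pooled groups includes the step between Dox times, which was large. With Dox time as a block, 1 gene, Ncapd2, was lower in H3.3K27L than in WT-H3.3 cells (-0.71, adjusted p = 0.0222), and 0 genes passed for H3.3K27M.

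Between 24 and 72 h of Dox, mitotic genes of RA-treated cells changed in both directions, in shares near those of all genes. With line as a term (3 libraries against 3), 18 of 58 were higher at 72 h and 22 were lower, where 33.3% of all genes passed as higher and 36.2% as lower. The median difference was 0.00. By role, of the 6 kinases and passenger genes, 5 were higher and 1 lower, and of the 8 centromere genes 6 were higher and 1 lower. Of the 6 spindle motor genes 0 were higher and 3 lower, of the 6 central spindle genes 0 and 4, and of the 8 condensin and topoisomerase genes 0 and 4. This fit was scaled on the 6 RA libraries, and its log2 differences lay 0.22 (median over the 58 genes) above those of the CPM given here, which were scaled over all 42 libraries. With the latter scaling (chosen after seeing the data) 16 genes were higher and 27 lower, with a median of -0.21.

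Birc5, which encodes survivin of the passenger complex, was at 64.4, 73.9 and 85.2 CPM at 24 h (WT-H3.3 first, then H3.3K27M, then H3.3K27L) and at 714.8, 613.4 and 847.9 CPM at 72 h, a log2 difference of 3.49 ± 0.15. Spc24, of the Ndc80 complex, was at 27.7, 28.3 and 41.01 against 167.4, 144.6 and 176.5 CPM. Cdca8, also called borealin, was at 80.3, 83.3 and 101.3 against 281.5, 359.0 and 447.3 CPM. In the same order, Cdk1 was at 160.3, 150.8 and 173.8 against 540.2, 709.6 and 708.5 CPM. These 4 genes were at least 3-fold higher at 72 h in every line.

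Kif20a moved the other way, from 198.0, 164.1 and 136.1 CPM at 24 h to 0.89, 3.87 and 2.54 CPM at 72 h (-5.76 ± 0.26). Prc1, its neighbour in the central spindle, went from 141.2, 112.6 and 130.7 CPM to 8.46, 15.5 and 13.3 CPM. Ncapg went from 96.8, 88.8 and 105.8 CPM to 14.7, 23.2 and 24.8 CPM. Top2a was at 641.0, 491.0 and 592.5 against 474.7, 536.3 and 562.2 CPM and did not pass (0.09 in the fit, with the scaling difference given above).

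The differences went with gene length. Across 58 genes, the log2 difference fell with the annotated exon length (Spearman's rho -0.425, and -0.333 over all genes with a length). Of 28 genes shorter than the median of 4083 bases, 14 were higher and 6 lower, and of the 30 longer ones 4 were higher and 16 lower. The methods name a 3′ kit and a whole-transcript kit, and which library had which is not given in the sources used here. The time in RA of the 24 h libraries is not given either. Dox time, kit and time in RA therefore cannot be told apart. With the length trend removed, 33 of the 40 calls remained, 5 were lost and 2 genes, Cenpe and Racgap1, changed sign. Exons of Kif20a overlap those of Cdc23 on the opposite strand by 1259 bases, Ncapg overlaps Lcorl by 942 bases, and the strand setting of the counting is not given in the sources used here. In all, 12 of the 59 genes overlap an exon of another gene.

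ESCs also changed with Dox time, by less. From 4 to 72 h (8 libraries each) 6 of 58 genes were higher and 8 lower, with 12.6% of all genes higher and 12.8% lower. Cenpf, a large kinetochore protein, ran from 138 to 307 CPM at 4 h (median 161) and from 339 to 817 CPM at 72 h (median 411), a log2 difference of 1.18 ± 0.21 with no overlap. Cenpe (0.94 ± 0.21) and Smc3 (0.56 ± 0.15) had the next lowest p among the higher genes. Ccnb1 ran from 280 to 377 CPM at 4 h (median 343) and from 72.9 to 253 CPM at 72 h (median 233), a difference of -0.56 ± 0.11. Cenpa (-0.42 ± 0.09) and Cdc20 (-0.42 ± 0.09) followed. Length went with direction here too, in the opposite sense (rho 0.63 over the 58 genes and 0.419 over all genes). The 28 shorter genes gave 0 higher and 6 lower, and the 30 longer ones 6 higher and 2 lower. The highest value of Cenpf and the lowest of Ccnb1 came from the library with 68378 counts. The count of higher genes rests on single libraries. It was 3 without H3.3K27L replicate 2, H3.3K27M replicate 1 or WT-H3.3 replicate 1 at 4 h or WT-H3.3 replicate 2 at 72 h, and 11 without H3.3K27M replicate 2 at 4 h. Without the library of 68378 counts, 5 genes were higher and 8 lower, Cenpf reached 452 CPM at most and Ccnb1 was at least 228 CPM.

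**Figure D4:**
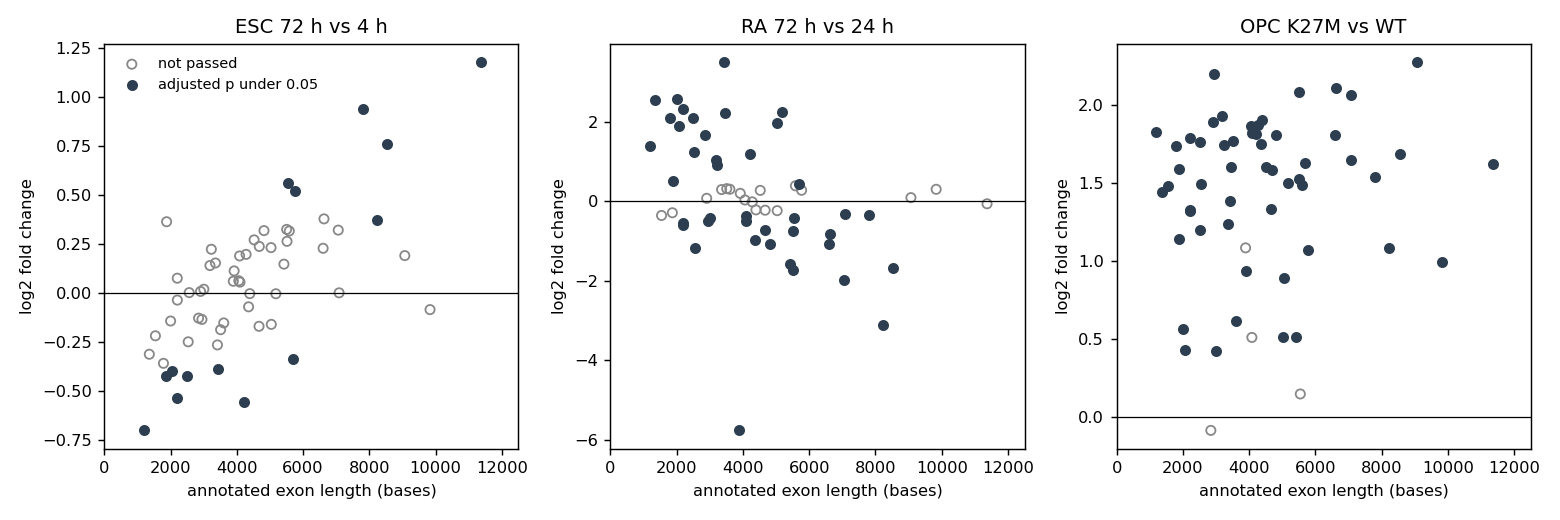
Log2 fold change (y axis, a scale for each panel) of the 58 tested genes against annotated exon length (x axis, bases). Filled points have an adjusted p under 0.05. Values rise with length between 4 and 72 h in ESCs (rho 0.63), fall with it between 24 and 72 h in RA-treated cells (rho -0.425) and show little relation in the OPC lines (rho 0.121).

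Against ESCs, RA-treated cells held fewer counts of most mitotic genes. At 24 h of Dox (3 libraries against 6) 37 of 58 were lower and 1, Cenpe, was higher (a call lost without H3.3K27L replicate 2 or WT-H3.3 replicate 1 of ESCs at 24 h or any 1 RA library of 24 h), where 32.6% of all genes passed as lower and 35.3% as higher. At 72 h, 37 were lower and 12 higher, against 41.0 and 34.8% of all genes. The medians of the 58 were -0.47 and -0.81 on the log2 scale. The median of all genes depends on the scaling here, at -0.17 with TMM and 0.20 with RLE size factors at 72 h, but the median of the 58 lay 0.643 and 0.644 below it. With RLE, calls over all genes at 72 h changed from 45.9 to 56.0% higher. Stage cannot be told apart from medium, count table and possibly kit.

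At 24 h, all 5 genes of the cyclin group, 5 of 6 kinase and passenger genes and 4 of 5 checkpoint genes were lower than in ESCs. Cenpm had the lowest p. It was at 7.27, 7.71 and 5.48 CPM in the RA-treated cells (WT-H3.3 first, then H3.3K27M, then H3.3K27L) and between 21.0 and 55.2 CPM in the 6 ESC libraries (median 39.7). Ccnb2, another B-type cyclin, fell by 1.24 and Zw10 fell by 1.05 on the log2 scale.

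At 72 h the roles parted. All 6 spindle motor genes were lower, with a median of -1.25, as were 7 of 8 condensin and topoisomerase genes (-1.0) and 5 of 6 central spindle genes (-1.78). Bub3 was higher, at 363.8, 476.2 and 481.2 CPM in the same order of lines against 117 to 155 CPM in 6 ESC libraries. Birc5 (2.16 ± 0.17), Bub3 and Plk1 (1.67 ± 0.17) had the lowest p of the higher genes. Kif20a, at 0.89 to 3.87 CPM, was between 223 and 278 CPM in ESCs. Length moved with these values (rho -0.473 over the 58 genes and -0.053 over all genes).

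OPC cultures were also compared with ESCs. Against the 8 ESC libraries of 24 and 72 h of both lines, with line as a term, 41 of 58 genes were lower and 7 higher, where 44.5% of all genes passed as lower and 38.4% as higher. The median was -1.22, against -0.18 over all genes. All 6 central spindle genes were lower (median -3.0), as were all 6 spindle motor genes (-1.85). Kif20a (-6.67 ± 0.25), Anln (-3.34 ± 0.16) and Zwilch (-3.08 ± 0.15) had the lowest p. The 7 higher genes were Bub3, Birc5, Cdca8, Plk1, Cenpl, Pttg1 and Cdk1. This fit gives both lines the same stage difference. With WT-H3.3 libraries alone 4 genes were higher, and Cdca8 (-0.292) and Cdk1 (-0.011) were not. Pttg1 differed by 1.55 ± 0.18 and Bub3 by 1.16 ± 0.13.

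The lines contribute unequally to this stage difference. In WT-H3.3 cells the median ratio of OPC to ESC level over the 59 genes was 0.276, and 52 genes were below 1. In H3.3K27M cells it was 0.668 with 41 below 1. Below 0.5 were 47 genes in WT-H3.3 and 23 in H3.3K27M cells. The share of all genes below these ratios was not computed for either line, so these counts have no background. The 44.5% of all genes that passed as lower in OPCs came from a test over both lines, a different measure. By the test of the difference between stages, the H3.3K27M effect was larger in OPCs for 47 of 58 genes and for 9.60% of all genes. Top2a stood at 0.195 of its ESC mean in WT-H3.3 OPCs and at 0.881 in H3.3K27M OPCs. Cdk1 stood at 1.06 and 3.55, Bub1b at 0.114 and 0.367, and Prc1 at 0.0765 and 0.139. Rad21 was at 0.994 and 1.38. Some genes were therefore below their ESC level in both lines, and others, such as Cenpa (0.496 and 1.69), lay on either side of it.

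With the RA-treated cells of 72 h as the reference in place of ESCs, chosen after seeing the data, 18 of 58 genes were lower in OPCs and 1 higher, where 19.3% of all genes passed as lower and 19.9% as higher. The median was then -0.64. Of the genes far below their ESC level, Kif20a differed by 0.02 and Prc1 by 0.51 from RA-treated cells, and neither passed. Set against ESC libraries that both comparisons share, RA libraries of 72 h and OPC libraries both had low Kif20a and Prc1 values and high Bub3, Birc5 and Plk1 values.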

How the data were processed

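Gene counts of 42 RNA-seq libraries were used. The authors aligned the reads to mm9 with STAR 2.7.1 and deposited the raw count of reads per gene, without normalization. Libraries were made with a 3′ or a whole-transcript kit. The 59 genes and the other lists were chosen with earlier results of these data known. Gene IDs were matched to NCBIM37 annotation, which named 32589 of 55471 genes holding 98.2% of counts. Chromosome 8 (5.85% of counts) was left out, as in the study. Tests cover the spread between libraries. ESC replicates were made weeks apart per the methods, while RA and OPC groups held 1 library per line and Dox time. The 72 h OPC columns and sample titles give different replicate numbers, and line and time were used to match them.

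Each comparison used edgeR 4.0.16 (TMM, filterByExpr, quasi-likelihood F test, Benjamini-Hochberg adjustment over all genes tested, R 4.3.3). A gene passed at an adjusted p under 0.05. All 14 comparisons were fitted on whole tables. The 32 ESC libraries shared 1 model, in which each group had its own mean at each Dox time. Values are log2 fold changes ± SE, and CPM were scaled by the TMM factors of all 42 libraries. DESeq2 1.42.0, RLE and upper quartile scaling, no filter, chromosome 8 kept, other sets of libraries, blocks and each library left out in turn were alternatives. The length correction, scaling of RA time on all 42 libraries, the RA reference for OPCs and crossed replicate numbers were added after seeing the data. A chi-square test of every 2 libraries found no copies (lowest value 1.51 per gene). Tested on simulated data, the fit recovered 94.5% of 200 genes changed 2.5-fold in the OPC comparison (12467 genes), with 9 false calls. For RA-treated cells against ESCs at 72 h it recovered 88%, with 12 false calls. The pooled line comparisons of RA-treated cells were not simulated.

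All 59 genes could be named. Per-library values are given for the 3 lowest p in each direction and for fixed genes of each role, and for other lists up to 4 genes of the lowest p. Orc4 and Mcm7 were named after their values were seen. Replicate numbers paired WT-H3.3 with H3.3K27M ESCs, as their deviations correlated at 0.615, 0.714, 0.608 and 0.712 over 8497 genes at the 4 Dox times. WT-H3.3 numbers did not pair with those of H3.3K27L or GSK343 at every Dox time. Of the marker genes, 38 of 41 were found.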

Additional observations from a re-analysis of the deposited data

Results flagged for a closer look

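In the 4 ESC groups of 8 libraries, the summed CPM of the 59 genes and 25 of the genes were checked for a library far from the others (104 checks, Dixon's test), and 13 stood apart. Chance alone gives about 1 in 20. Of the 13, 12 came from replicate 2 of H3.3K27L at 72 h, which held 68378 counts. Its summed CPM was 14337, where the next library had 12317 CPM. It was highest for Ndc80 (160.4 CPM), Aurkb (160.4 CPM), Cenpe (466.7 CPM), Cenpf (816.7 CPM), Kif11 (452.1 CPM), Smc2 (700.1 CPM) and Smc3 (1108 CPM). It was lowest for Mis12 (58.3 CPM), Plk1 (43.8 CPM), Espl1 (58.3 CPM) and Ccnb1 (72.9 CPM). In H3.3K27M ESCs, replicate 2 at 72 h was highest for Tpx2 (435.5 CPM, next 335.8 CPM).

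The effect of H3.3K27M differed between OPCs and ESCs for 47 of 58 genes, by a test of the difference itself, and all 47 were in the direction of a larger effect in OPCs.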

How the results depend on the processing

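Of 5545 values computed again under an alternative, 5083 were counted as unchanged. Of these 5545, 4810 were values of single genes, of which 4407 kept their direction and side of the threshold and 14 changed sign. The rest were counts and medians, which could move by a small amount and still be counted as unchanged, even with a change of sign. For H3.3K27L against WT-H3.3 in ESCs, the median was 0.017 with TMM and -0.022 with RLE. Values of the 58 genes follow as counts higher or lower and as median log2 differences, and the cause of a change was not tested. With a 2-fold threshold added, which asks more by construction, H3.3K27L against WT-H3.3 in ESCs gave 0 lower, ESCs of 72 against 4 h gave 1 higher and 0 lower, RA-treated cells of 72 against 24 h gave 9 lower, and RA-treated cells against ESCs at 24 h gave 0 higher and 12 lower. H3.3K27L against WT-H3.3 in ESCs gave 1 higher with no filter on low counts, and 1 lower with chromosome 8 kept or with the compared libraries alone. RA-treated cells against ESCs at 24 h gave 0 higher with upper quartile scaling or the length trend removed, and 0 higher and 22 lower with WT-H3.3 libraries alone. The median at 24 h was -0.365 with DESeq2, -0.363 with RLE and -0.806 without the length trend. At 72 h it was -0.445, -0.442, -0.986 with WT-H3.3 alone and -0.99 with no filter. OPCs against ESCs gave 4 higher and a median of -1.959 with WT-H3.3 alone, where Cdca8 (-0.292) and Cdk1 (-0.011) changed sign. Against RA-treated cells of 72 h they gave 1 higher, 18 lower and a median of -0.636, and the sign changed for Casc5 (0.001), Bub3 (-0.317), Birc5 (-1.015), Cdca8 (-0.574), Plk1 (-0.294), Nusap1 (0.031), Kif20a (0.017), Prc1 (0.513), Smc3 (0.325) and Cdk1 (-0.385). Without the length trend, the RA differences of 72 against 24 h changed sign for Cenpe (0.152) and Racgap1 (0.137). Scaled over all 42 libraries, their median was -0.208, a shift that this scaling gives by construction.

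The replicate block, for which pairing was seen in the H3.3K27M against WT-H3.3 comparison of ESCs, left it at 0 higher and 0 lower with a median of 0.073, and gave 56 higher and 0 lower in OPCs, where the numbers in the titles are those of the Dox times. It moved no other count by over 1.5 times. For H3.3K27L against WT-H3.3, whose same-numbered libraries correlated at -0.598, -0.707, -0.676 and 0.261 over the 4 Dox times, crossed numbers in the block (chosen after seeing the data) gave 4 higher and 4 lower. A block for Dox time gave 1 lower for H3.3K27L in RA-treated cells.

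Leaving out 1 library at a time, H3.3K27L against WT-H3.3 in ESCs gave 0 to 1 higher and 0 to 2 lower, and ESCs of 72 against 4 h gave 3 to 11 higher. In OPCs, H3.3K27M against WT-H3.3 gave 51 to 54 higher with medians from 1.394 to 1.699, and the difference from ESCs gave 36 to 48 higher. RA-treated cells against ESCs at 24 h gave 0 to 1 higher and medians from -0.665 to -0.457. Depth limits the library of 68378 counts most, and 2 libraries per line limit the OPC results.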
